A study of Homo sapiens with 48 samples.

Results

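Tumors grown from CAL27 cells, a squamous carcinoma line of the tongue, were compared with tumors grown from A431 cells, an epidermoid carcinoma line, in a pooled knockout screen. The comparison took every value column of the 2 deposited tumor tables, which gave 10 CAL27 tumors and 8 A431 tumors, 18 of the 48 samples of the series. Both lines carried Cas9 from a lentivirus selected with blasticidin, and both received the same kind of guide library by lentivirus at a multiplicity of infection of 0.3, followed by puromycin. Some infected cells were frozen at the start as the reference, called initial cells. The remaining cells were mixed with Matrigel and placed under the skin of the rear flanks of SHO mice, and tumors were taken after about 2 months. SHO mice are hairless and immunodeficient, lacking functional T and B lymphocytes while keeping innate immune cells. The sources used here do not say whether the Cas9 lines were clones, which tumors shared a mouse or how old the mice were, and p-values measure the spread between these tumors. The 2 cultures of each line, grown for 3 weeks, serve below as the background measured without a host.

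In such a screen each cell carries a guide RNA that directs Cas9 to a single gene. Guides against a gene that cells need become rarer as the population grows, and guides against a gene that holds growth back become more common. Squamous carcinoma cells descend from stratified epithelium, whose basal cells attach to matrix through integrins and divide, and whose upper layers stop dividing and switch on differentiation genes. The tables gave a log fold change per gene for 327 genes, relative to the non-targeting guides and to the initial cells of the table. The sources used here do not give the log base, so every value is in unspecified log units, and the number of reads behind it is unknown. The tables do not state their direction. A negative value is read here as loss of a knockout, since guides against DUT, which keeps uracil out of DNA, stood at -2.13 log units in A431 culture and -3.00 in CAL27 culture. Each column was centred on its median over genes, so a value is relative to the median gene of that tumor.

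CAL27 tumors showed wider changes than A431 tumors. The SD over the 327 genes of a tumor was 1.70 ± 0.33 log units (SD, n = 10) in CAL27, from 1.09 to 2.23, and 0.93 ± 0.29 (n = 8) in A431, from 0.42 to 1.34. The difference of 0.77 had an exact permutation p of 2.057e-04 (two-sided). The median gene lay -0.81 ± 0.29 log units from the non-targeting guides in CAL27 and -0.27 ± 0.16 in A431, a difference of -0.54. No CAL27 tumor was above any A431 tumor on that measure, and the exact permutation p was 4.571e-05 (two-sided). The median gene had an SD between tumors of 0.62 in A431 and 1.09 in CAL27, and the SD was larger in CAL27 for 278 of the 327 genes. Depth, the number of engrafted cells and the number of cell divisions are unknown for every tumor, and their part in the wider spread was not tested.

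**Figure D1:**
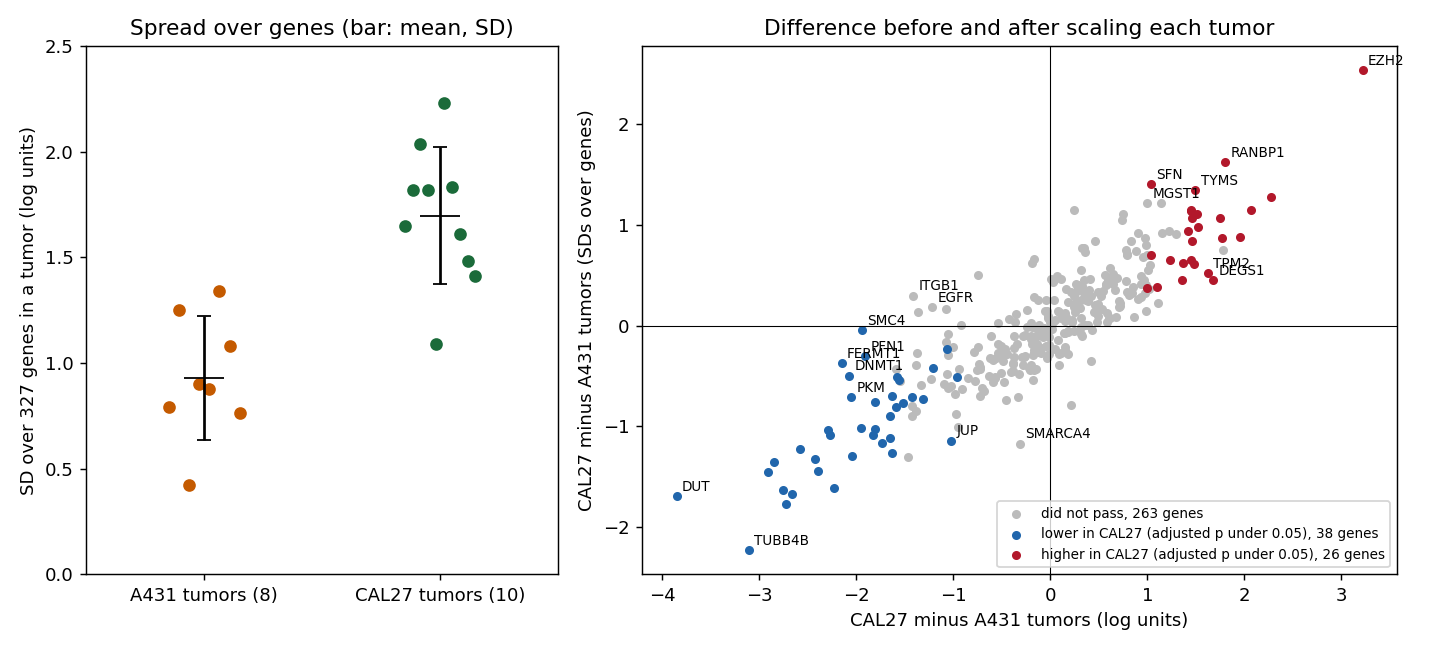
The left panel plots the SD over 327 genes (log units) of each A431 and CAL27 tumor as points, with the group mean and SD as bars: CAL27 tumors sit between 1.09 and 2.23 and A431 tumors between 0.42 and 1.34. The right panel plots each gene's difference between lines in log units (horizontal axis) against the same difference after each tumor was divided by its SD over genes (vertical axis), where EZH2 and TUBB4B stay far from 0 and SMC4 and FERMT1 fall near it.

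Of the 327 genes, 38 (11.6%) were lower and 26 (7.95%) were higher in CAL27 tumors than in A431 tumors at an adjusted p under 0.05 (limma, Benjamini-Hochberg over all genes, 1 spread pooled over both lines), 19.6% in either direction. These shares are the background for the counts of called genes per list below. With an own spread for each line, 44 (13.5%) were lower and 29 (8.87%) higher, including all 38 and all 26. Since a wider tumor moves every gene away from 0, the comparison was repeated after each centred column was divided by its SD over genes, called scaled values below. Then 21 genes (6.42%) were lower and 15 (4.59%) higher, and 18 and 14 of them were among the 38 and 26. None of the 38 or 26 changed sign when scaled. Relative to the non-targeting guides instead of the median gene the split was 61 lower and 5 higher, since by group means the median gene itself differed by -0.54. The 5 were EZH2, PLP2, IRF2, ADM and DEGS1, and 16 named genes lost their call. The initial cells are shared by all tumors of a table, so their error is in none of these tests and would look the same as a difference between lines.

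**Figure D2:**
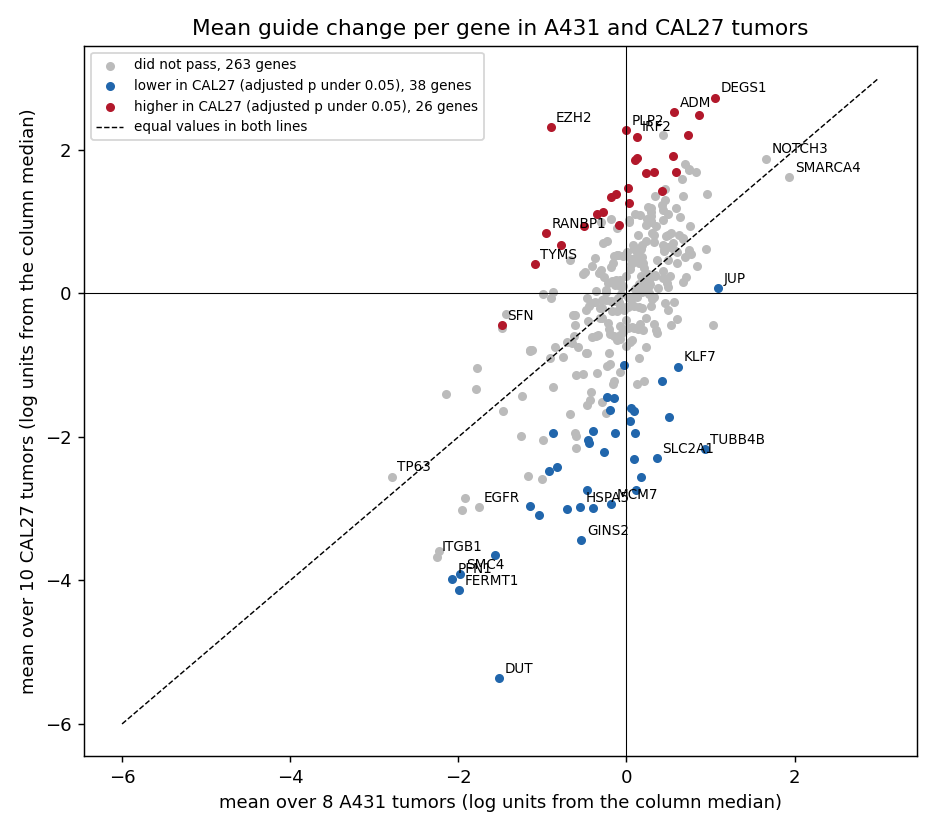
Each point is a gene, with its mean over 8 A431 tumors on the horizontal axis and over 10 CAL27 tumors on the vertical axis, both in log units from the column median, coloured by the pooled-spread call, and the dashed line marks equal values. Blue genes (38) lie below the line, most with A431 means near 0, and EZH2, TUBB4B and KLF7 lie in quadrants of opposite sign.

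Most genes that differed passed each line's own test against 0 in CAL27 tumors and not in A431 tumors. Over all genes, that test called 39 (11.9%) lower and 26 (7.95%) higher in A431 and 72 (22%) and 61 (18.7%) in CAL27. Most genes thus passed neither way in A431, and not passing does not show that a gene was unchanged there. Among the 38 lower genes, 28 were lower in CAL27 and passed neither way in A431, 7 were lower in both lines, 2 were higher in A431 and lower in CAL27 (TUBB4B and KLF7), and 1, JUP, was higher in A431 only. Among the 26 higher genes, 15 were higher in CAL27 and passed neither way in A431, and 5 were higher in both. EZH2 was lower in A431 and higher in CAL27, SFN, TYMS and RANBP1 were lower in A431 only, and 2 passed in neither line.

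EZH2 gave the largest positive difference between the lines. It is the methyltransferase of Polycomb repressive complex 2, which places the repressive mark on lysine 27 of histone H3. EZH2 guides lay between -2.19 and 0.12 log units in A431 tumors, with a median of -0.87, and between 0.48 and 3.82 in CAL27 tumors, with a median of 2.64. All 10 CAL27 tumors were above all 8 A431 tumors. The difference was 3.22 (SE 0.44, limma adjusted p = 2.43e-05, and 2.00e-06 with an own spread), and after scaling it was 2.54 SDs over genes (adjusted p = 2.00e-06). In culture EZH2 stood at -2.53 in A431 and -0.15 in CAL27 (2 cultures each), so by value it was lower in A431 in both settings.

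TUBB4B, a beta-tubulin isotype of microtubules, was the mirror image. Its values ran from 0.31 to 2.18 in A431 tumors, with a median of 0.75, and from -4.37 to -0.46 in CAL27 tumors, with a median of -2.11. No tumor of either line overlapped the other, which was so for 1 lower gene (0.306%), TUBB4B, and 2 higher genes (0.612%), EZH2 and DEGS1. The difference was -3.10 (SE 0.44, limma adjusted p = 2.43e-05), and the scaled difference of -2.23 had an adjusted p of 2.00e-06. In culture it stood at -0.46 in A431 and -1.17 in CAL27. KLF7, a Krüppel-like transcription factor, also moved in opposite directions, with 0.62 ± 0.37 in A431 tumors and -1.02 ± 1.39 in CAL27 tumors (difference -1.64, adjusted p = 0.0177). In CAL27 its lowest tumor stood at -4.41 and its median was -0.59, so the size of its mean rests on a few tumors.

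**Figure D3:**
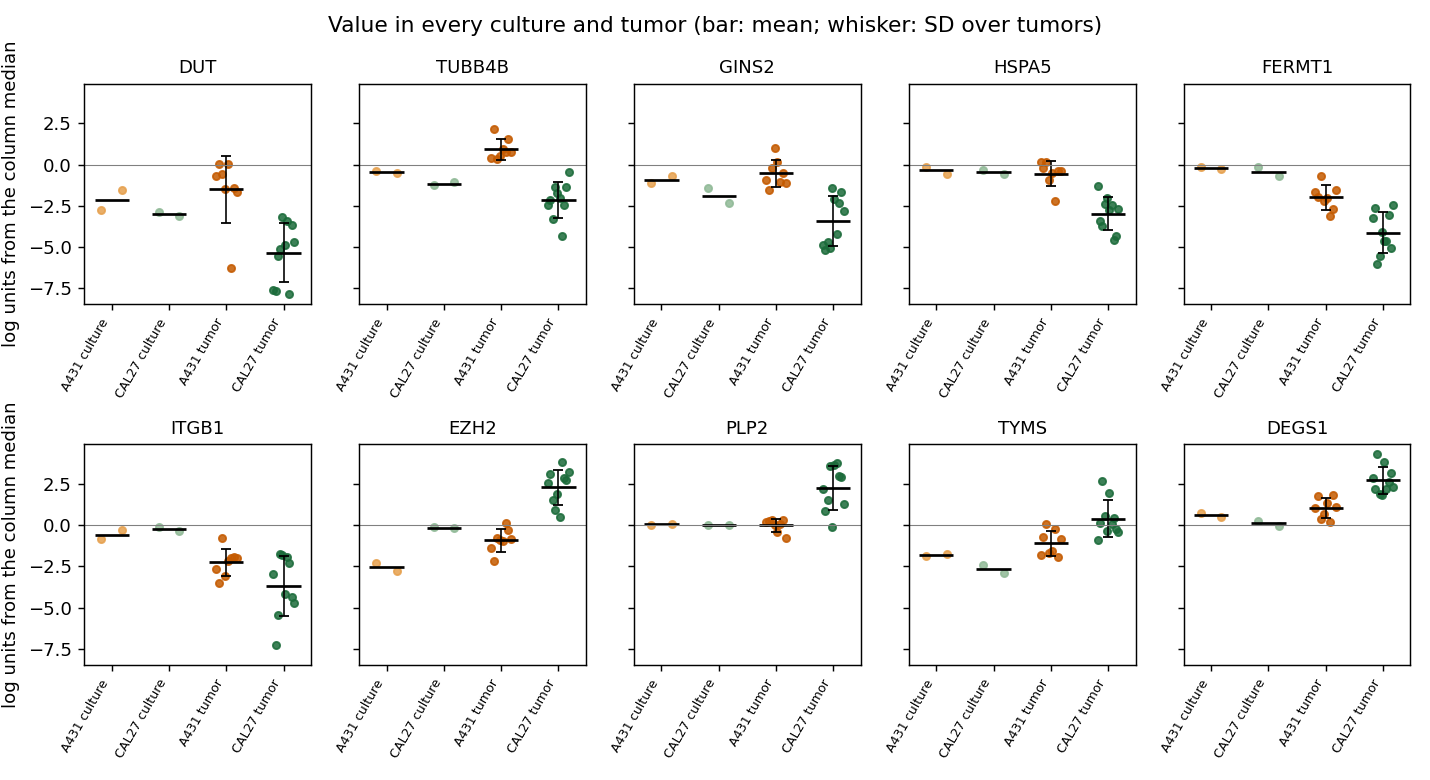
Points are single cultures (2 per line) and tumors (8 A431, 10 CAL27) for 10 genes, in log units from the column median, with bars at the mean and whiskers of 1 SD over tumors. EZH2, TUBB4B and DEGS1 show no overlap between the lines in tumors, while ITGB1 overlaps widely and DUT has an A431 tumor at -6.29 among CAL27 values.

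DNA replication and nucleotide supply held the most negative difference of the screen. Of its 12 measured genes, 5 were lower in CAL27 tumors (DUT, GINS2, MCM7, BRCA1 and RRM2) and 2 were higher (TYMS and TK1). The median difference was -1.46, beside -0.01 over all 327 genes, and after scaling -0.28. DUT encodes dUTPase, which hydrolyses dUTP and supplies the precursor of thymidylate. Its guides lay between -6.29 and 0.03 in A431 tumors, with a median of -1.05, and between -7.85 and -3.18 in CAL27 tumors, with a median of -4.99. A single A431 tumor, at -6.29, lay among the CAL27 values, and every CAL27 tumor was below the A431 median. The difference was -3.85 (SE 0.75, limma adjusted p = 1.28e-03).

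GINS2 and MCM7 are parts of the replicative helicase, the CMG complex that unwinds DNA at the fork. GINS2 ran from -1.57 to 1.00 in A431 tumors (median -0.74) and from -5.20 to -1.44 in CAL27 tumors (median -3.52). MCM7 ran from -1.93 to 1.10 (median -0.14) and from -5.15 to -1.22 (median -2.67). For GINS2 9 of 10 and for MCM7 7 of 10 CAL27 tumors were below the lowest A431 tumor, with differences of -2.90 (limma adjusted p = 7.77e-04) and -2.76 (adjusted p = 6.84e-04). BRCA1, which acts in homologous recombination and protects stalled forks, averaged 0.09 ± 0.97 in A431 tumors and -2.31 ± 1.35 in CAL27 tumors (difference -2.39, adjusted p = 2.62e-03). These 4 calls held after scaling, while that of RRM2, a subunit of ribonucleotide reductase (-1.63), did not (scaled adjusted p = 0.13).

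Thymidylate synthase, TYMS, went the other way in the same pathway. TYMS guides lay between -1.96 and 0.05 in A431 tumors (median -1.20) and between -0.88 and 2.68 in CAL27 tumors (median 0.11). The groups overlapped, with 6 of 10 CAL27 tumors above the highest A431 tumor, and the difference was 1.49 (SE 0.45, limma adjusted p = 0.0197). TK1, the salvage enzyme that phosphorylates thymidine, was higher by 1.46 (A431 -0.35 ± 0.51, CAL27 1.11 ± 0.85, adjusted p = 0.0105). Both calls held after scaling and were lost relative to the non-targeting guides (TYMS 0.95, adjusted p = 0.145, and TK1 0.92, adjusted p = 0.0805). TYMS, which held no tied value itself, was also lost without the 5 CAL27 tumors with tied values described further down (0.75, adjusted p = 0.210). The replication clamp PCNA (A431 -1.93, CAL27 -2.85) and the helicase subunit MCM5 (-2.22 and -3.59) were lower than the median gene in both lines, and their differences did not pass (adjusted p = 0.354 and 0.182). PCNA in 4 and MCM5 in 2 CAL27 tumors were among the tied values.

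Of 23 measured mitosis genes, 3 were lower in CAL27 tumors, SMC4 of condensin, CKS1B and CDK1, and 0 were higher, with a median difference of -0.11. The share of lower genes was near the 11.6% of all genes. SMC4 had -1.97 ± 1.08 in A431 and -3.91 ± 1.21 in CAL27 (difference -1.94, limma adjusted p = 0.0102), and on scaled values the lines stood at -2.34 and -2.39, a difference of -0.05. CKS1B (-1.31) and CDK1 (-1.21) also lost their calls when scaled, and without 8 and 13 of the 18 tumors taken singly. UBE2C, a ubiquitin-conjugating enzyme of the anaphase-promoting complex, was lower than the median gene in both lines, at -1.77 ± 1.45 in A431 and -1.04 ± 1.10 in CAL27, and its difference of 0.73 had a 95% confidence interval of -0.38 to 1.85. BIRC5, the survivin of the chromosomal passenger complex, was also low in both (difference -0.74, adjusted p = 0.422).

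Among 6 tubulin and stathmin genes, 3 were lower in CAL27 tumors and 0 higher, with a median of -1.07 (scaled -0.29). Beside TUBB4B these were the alpha-tubulins TUBA1C and TUBA1B. TUBA1C ran from -0.21 to 1.23 in A431 tumors (median 0.45) and from -4.65 to 0.08 in CAL27 tumors (median -1.48), and 8 of 10 CAL27 tumors were below the lowest A431 tumor (difference -2.22, limma adjusted p = 4.46e-03). Its call held after scaling. TUBA1B (-1.07, adjusted p = 0.0428) lost its call when scaled and without 10 of the 18 tumors taken singly. TUBB, the beta-tubulin lower than the median gene in both lines (A431 -1.95, CAL27 -3.02), did not pass.

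Endoplasmic reticulum chaperones and translation genes were lower in CAL27 tumors in 4 of 7 cases and higher in 0, with a median difference of -1.43 (scaled -0.71). HSPA5, the chaperone BiP, ran from -2.22 to 0.16 in A431 tumors (median -0.40) and from -4.56 to -1.31 in CAL27 tumors (median -2.75). Of the CAL27 tumors, 8 of 10 were below the lowest A431 tumor, and the difference was -2.43 (SE 0.44, limma adjusted p = 6.84e-04). YBX1, an RNA-binding protein of messenger ribonucleoproteins, differed by -2.58 (A431 -0.40 ± 0.81, CAL27 -2.98 ± 1.81, adjusted p = 4.59e-03). Both held after scaling. GNB2L1, the ribosomal scaffold RACK1 (-1.81), and the poly(A)-binding protein PABPC1 (-1.43) did not hold after scaling, and GNB2L1 was lost without 10 of the 18 tumors taken singly. BTF3, which binds nascent chains at the ribosome and was counted among general transcription factors, averaged 0.17 ± 0.72 in A431 and -2.56 ± 1.68 in CAL27 (difference -2.73, adjusted p = 2.07e-03, held after scaling). RPS19, a protein of the small ribosomal subunit outside the lists, was lower (-1.82, adjusted p = 0.0108).

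AP-1 factors and MYC were lower in CAL27 tumors in 4 of 8 cases and higher in 0, with a median of -1.31 (scaled -0.51). AP-1 is a dimer of JUN and FOS family proteins that acts downstream of growth factor signalling. FOSL1, the FRA-1 subunit, ran from -1.70 to 0.06 in A431 tumors (median -0.31) and from -4.91 to -0.41 in CAL27 tumors (median -2.84). JUNB ran from -0.96 to 0.55 (median 0.33) and from -4.01 to 0.39 (median -2.14). For FOSL1 6 of 10 and for JUNB 7 of 10 CAL27 tumors were below the lowest A431 tumor, with differences of -2.27 (limma adjusted p = 6.31e-03) and -2.04 (adjusted p = 7.32e-03), both held after scaling. Neither gene passed in A431 alone. JUN differed by -1.80 (adjusted p = 0.0127, and 0.0505 when scaled). MYC (-0.92 ± 1.21 and -2.48 ± 1.04, difference -1.56) lost its call when scaled and without 6 of the 18 tumors taken singly.

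Actin genes split. Of 12, the actin-severing cofilin CFL1 (-2.29), the monomer-binding profilin PFN1 (-1.91) and the Arp2/3 subunit ARPC2 (-1.58) were lower in CAL27 tumors, and the tropomyosin TPM2 (1.63) and the filamin FLNA (1.42) were higher. TPM2 averaged 0.86 ± 0.53 in A431 tumors and 2.49 ± 1.22 in CAL27 tumors. PFN1 was low in both lines, with -2.07 ± 1.19 and -3.98 ± 1.62, and on scaled values the difference was -0.30 (limma adjusted p = 0.70). None of the calls of CFL1, PFN1, ARPC2 and TPM2 held after scaling, and that of PFN1 was lost without A431 value column 3 (-1.64, adjusted p = 0.0669) or 8 (-1.72, adjusted p = 0.0587). In 3 CAL27 tumors CFL1 was among the tied values described further down.

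Guides against the integrin adhesion genes FERMT1 and ITGB1 were lower than the median gene in both lines. FERMT1, which encodes kindlin-1, an activator of integrins, ran from -3.11 to -0.67 in A431 tumors (median -2.00) and from -6.02 to -2.45 in CAL27 tumors (median -4.37). It was below the median gene in all 18 tumors, and 7 of 10 CAL27 tumors were below the lowest A431 tumor (difference -2.15, SE 0.48, limma adjusted p = 3.03e-03). On scaled values the means were -2.11 and -2.48 and the difference of -0.37 did not pass (adjusted p = 0.489). ITGB1, the beta-1 integrin subunit, ran from -3.51 to -0.78 (median -2.08) in A431 and from -7.24 to -1.75 (median -3.57) in CAL27, and 5 of 10 CAL27 tumors lay within the A431 range. Its difference of -1.41 had a 95% confidence interval of -2.67 to -0.16 before adjustment and did not pass over all genes (adjusted p = 0.109). Relative to the non-targeting guides it was -1.95 and passed (adjusted p = 0.0296), and the scaled difference was 0.30. FHL2, a LIM-domain protein found at focal adhesions, was higher in CAL27 (1.10, adjusted p = 0.0397), a call lost when scaled and without 9 of the 18 tumors taken singly. FERMT1 and FHL2 were the 2 of 7 integrin adhesion genes that passed, beside 19.6% of all genes in either direction.

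EGFR, the growth factor receptor whose gene is amplified in A431, was lower than the median gene in both lines. It ran from -3.36 to -0.17 in A431 tumors (median -1.82) and from -4.29 to -0.84 in CAL27 tumors (median -3.16), and the groups overlapped, with 5 of 10 CAL27 tumors inside the A431 range. The difference of -1.22 (95% confidence interval -2.27 to -0.17) did not pass over all genes (limma adjusted p = 0.102). It passed without CAL27 value column 5 (-1.46, adjusted p = 0.033). With values taken against the non-targeting guides it was -1.76 and also passed (adjusted p = 0.0205), and on scaled values it was 0.18. EGFR was the only measured gene of its signalling list.

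Hemidesmosome and junction genes gave 1 call each and keratins 2, on lists of 8, 11 and 9 genes, beside 19.6% of all genes in either direction. Of 8 hemidesmosome and laminin-332 genes, DST, the plakin that links keratin filaments to hemidesmosomes, was higher in CAL27 tumors (0.56 ± 0.58 and 1.91 ± 0.81, difference 1.35, limma adjusted p = 0.014), a call lost when scaled. Of 11 junction genes, JUP, the plakoglobin of desmosomes and adherens junctions, was lower. JUP ran from 0.29 to 2.10 in A431 tumors (median 1.01) and from -0.67 to 0.80 in CAL27 tumors (median 0.00), and 7 of 10 CAL27 tumors were below the lowest A431 tumor (difference -1.02, adjusted p = 0.0312). It held after scaling, but not without A431 value column 1, 5 or 6 or CAL27 value column 3, where the adjusted p reached 0.0814. Of 9 keratins, KRT14 of basal cells and KRT16 of stressed epidermis were lower, each with a difference of -1.65. KRT16 stood at 0.43 ± 0.58 in A431 and -1.23 ± 1.48 in CAL27 and KRT14 at 0.05 ± 0.65 and -1.60 ± 1.08. KRT14 lost its call when scaled (adjusted p = 0.0567), and KRT16 without A431 value column 5 (adjusted p = 0.0509). The other keratins lay between -0.20 and 0.72, and KRT5, the partner of KRT14, differed by 0.72 without passing. Guides against keratin genes of similar sequence could cut more than their own target, and the guide sequences were not used here.

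Keratinocyte differentiation genes were higher in CAL27 tumors in 6 of 17 cases and lower in 0, with a median difference of 0.67 (scaled 0.32). They were KRTDAP, SBSN and DMKN, secreted proteins of the upper epidermis, the galectin-7 copies LGALS7B and LGALS7, and SFN, the 14-3-3 sigma protein. KRTDAP ran from -0.68 to 1.54 in A431 tumors (median -0.03) and from 0.18 to 4.49 in CAL27 tumors (median 1.93). LGALS7B ran from -1.18 to 1.66 (median -0.10) and from 0.53 to 3.00 (median 1.88). For each gene 6 of 10 CAL27 tumors were above the highest A431 tumor, and the differences were 1.77 (limma adjusted p = 0.0114) and 1.75 (adjusted p = 6.31e-03).

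SBSN (1.53, limma adjusted p = 9.89e-03) was positive in all 10 CAL27 tumors, from 0.34 to 2.15, and ran from -1.90 to 1.38 in A431. LGALS7 and LGALS7B are near-identical copies, so guides against either may cut both and they are not independent. SBSN, LGALS7B and SFN held after scaling, while KRTDAP (adjusted p = 0.091), DMKN (0.286) and LGALS7 (0.16) did not. DMKN was also lost without A431 value column 4 (1.31, adjusted p = 0.0533). SFN differed in kind from the others. It was below the median gene in all 8 A431 tumors, from -2.12 to -0.78, and averaged -0.45 ± 0.74 in CAL27 tumors (difference 1.04, adjusted p = 0.0434). On scaled values the SFN difference was 1.40 (adjusted p = 5.70e-04), but unscaled it was lost without 13 of the 18 tumors taken singly. Relative to the non-targeting guides none of the 6 passed. The differences were then 1.23 for KRTDAP (adjusted p = 0.0558), 1.21 for LGALS7B (0.0506), 0.99 for SBSN (0.0796), 0.94 for DMKN (0.175), 0.83 for LGALS7 (0.121) and 0.50 for SFN (0.395).

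Squamous fate factors did not pass in either direction (0 of 13), although 11 of the 13 differences were above 0, beside 163 of all 327. Their median difference was 0.59 (scaled 0.26). TP63, the p63 factor that maintains basal squamous cells, ran from -5.75 to 0.23 in A431 tumors (median -3.06) and from -5.27 to -0.09 in CAL27 tumors (median -2.71). The groups overlapped fully, and the difference of 0.24 had a 95% confidence interval of -1.20 to 1.68. NOTCH3, a receptor of the pathway that drives epidermal differentiation, ran from 0.74 to 2.43 in A431 (median 1.57) and from 1.01 to 2.78 in CAL27 (median 1.81). It was positive in all 18 tumors, and the difference of 0.21 had an interval of -0.52 to 0.94. On scaled values NOTCH3 stood at 1.91 in A431 and 1.12 in CAL27, a difference of -0.78 that did not pass (limma adjusted p = 0.090). The largest difference of the list was CEBPA, a differentiation factor (1.29, adjusted p = 0.0599, and 0.0381 with an own spread).

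**Figure D4:**
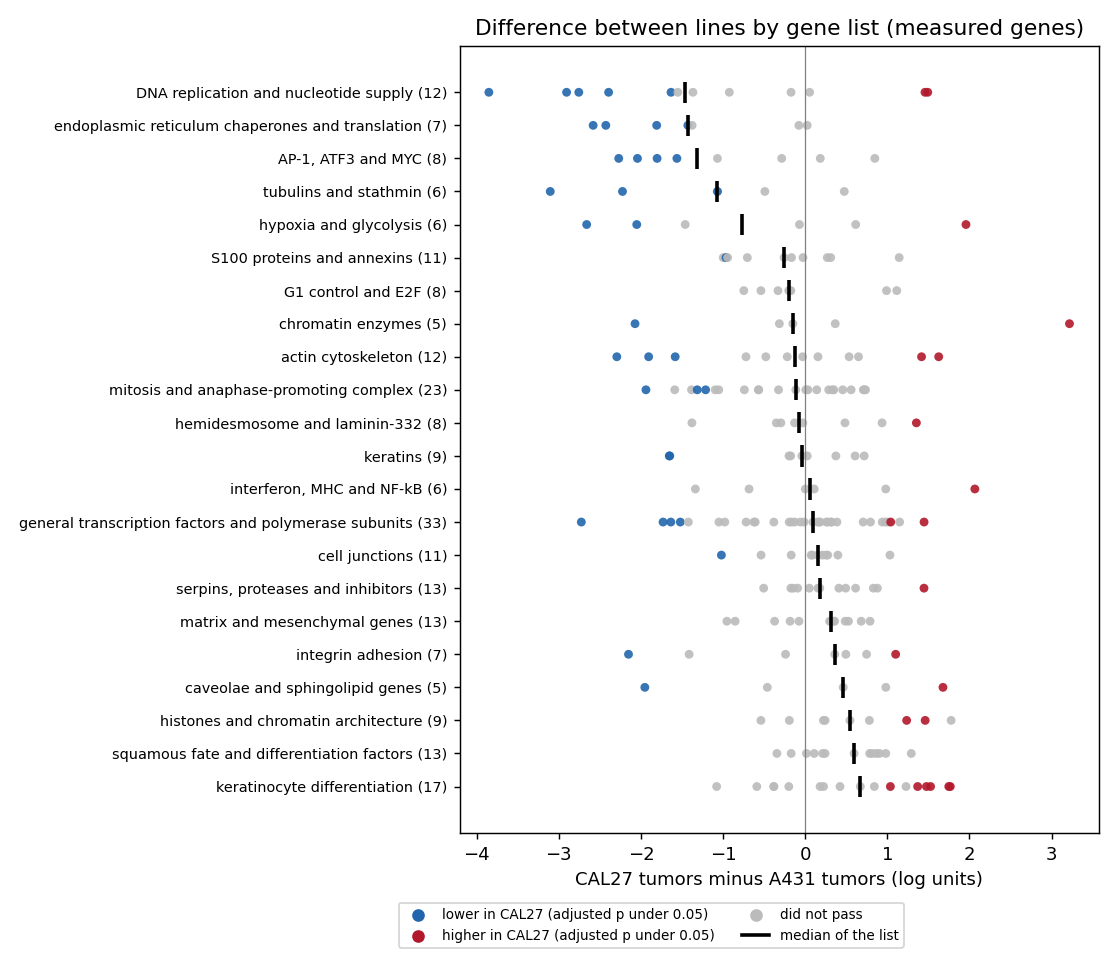
Each row is a gene list with its number of measured genes, each point a gene placed at its CAL27 minus A431 difference in log units, coloured by the pooled-spread call, and black ticks mark list medians. The DNA replication list spans from -3.85 to 1.49 with a median of -1.46, and keratinocyte differentiation has a median of 0.67 with 6 higher genes and 0 lower.

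Chromatin enzymes other than EZH2 took other courses. DNMT1, the maintenance DNA methyltransferase, was low in both lines (-1.57 ± 0.89 and -3.64 ± 1.66, difference -2.07, limma adjusted p = 0.013), and its scaled difference of -0.50 did not pass. SMARCA4, an ATPase of the SWI/SNF remodeller, was high in both, with 1.94 ± 0.62 in A431 and 1.62 ± 1.27 in CAL27, where values ran from -0.25 to 3.86. Its difference in log units was -0.31 (95% confidence interval -1.28 to 0.66), while on scaled values it passed (A431 2.19, CAL27 1.02, difference -1.17, adjusted p = 0.0276), as it did with columns divided by the median absolute deviation (adjusted p = 0.0371) and after quantile normalization (adjusted p = 0.0179). Of 9 histone and chromatin architecture genes, the linker histone HIST1H1A (1.46) and HMGB1 (1.24) were higher in CAL27 and 0 were lower (7.95% and 11.6% of all genes). Neither held after scaling, and HMGB1 was lost without 8 of the 18 tumors taken singly. The histone chaperone cofactor DNAJC9 was lower than the median gene in both lines (difference -0.19, interval -1.53 to 1.14).

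Hypoxia and glycolysis genes split as well. SLC2A1, the glucose transporter GLUT1, ran from -0.82 to 0.88 in A431 tumors (median 0.50) and from -4.97 to -0.49 in CAL27 tumors (median -1.31). All 10 CAL27 tumors were below the A431 median and 8 of 10 were below the lowest A431 tumor (difference -2.66, limma adjusted p = 2.38e-03, held after scaling). The glycolytic enzyme PKM averaged -1.04 ± 0.58 and -3.09 ± 1.89 (difference -2.05, adjusted p = 0.0178, and 0.232 when scaled). ADM, which encodes the hypoxia-induced vasoactive peptide adrenomedullin, went the other way. It ran from -0.02 to 1.35 in A431 (median 0.53) and from 1.29 to 4.30 in CAL27 (median 2.32), with 9 of 10 CAL27 tumors above the highest A431 tumor (difference 1.96, adjusted p = 2.15e-03, held after scaling). Of 6 genes on the list, SLC2A1 and PKM were lower and ADM was higher.

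DEGS1, the desaturase that makes ceramide from dihydroceramide, was higher in CAL27 with no overlap. It ran from 0.21 to 1.83 in A431 tumors (median 1.09) and from 1.84 to 4.30 in CAL27 tumors (median 2.46). The lowest CAL27 tumor thus stood next to the highest A431 tumor. The difference was 1.68 (SE 0.39, limma adjusted p = 4.46e-03). DEGS1 was positive in all 18 tumors, and on scaled values the means were 1.16 and 1.61 and the difference of 0.45 did not pass. GLTP, which carries glycosphingolipids between membranes, was lower (-0.26 ± 0.79 and -2.21 ± 1.65, difference -1.95, adjusted p = 0.0165, and 0.0519 when scaled). They were the 2 calls among 5 caveolar and sphingolipid genes.

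Several strong differences fell outside these groups. PTMA, the acidic nuclear protein prothymosin alpha, averaged 0.11 ± 1.02 in A431 and -2.73 ± 1.68 in CAL27 (difference -2.85, limma adjusted p = 2.07e-03). PLP2, a membrane protein, ran from -0.77 to 0.32 in A431 tumors (median 0.14) and from -0.12 to 3.81 in CAL27 tumors (median 2.57), with 9 of 10 CAL27 tumors above the highest A431 tumor (difference 2.28, adjusted p = 2.07e-03). IRF2, an interferon regulatory factor that mostly represses, averaged 0.12 ± 0.65 and 2.19 ± 1.48 (difference 2.07, adjusted p = 7.89e-03). It was the only call among 6 interferon, MHC and NF-kB genes, beside 19.6% of all genes in either direction. RANBP1, a cofactor of the Ran GTPase of nuclear transport, averaged -0.96 ± 0.73 and 0.84 ± 1.15 (difference 1.80, adjusted p = 8.85e-03). APP, the amyloid precursor protein, averaged -0.12 ± 0.56 and 1.39 ± 0.88 (difference 1.51, adjusted p = 9.89e-03). All 5 held after scaling by the SD, and each was lost in another setting. PLP2 was lost with the SCC13 tumors in the fit (adjusted p = 0.0659), as were IRF2 (0.0814), RANBP1 (0.124) and APP (0.270). PTMA was lost after quantile normalization (adjusted p = 0.0608), and RANBP1 (1.26, adjusted p = 0.0717) and APP (0.97, adjusted p = 0.0796) relative to the non-targeting guides. IRF2, which held no tied value itself, was lost without the 5 CAL27 tumors with tied values described further down (1.02, adjusted p = 0.131).

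CXADR, the coxsackievirus and adenovirus receptor of tight junctions, was higher by 1.45 but was lost without 16 of the 18 tumors taken singly. MGST1, a membrane glutathione transferase, was low in A431 (-1.48 ± 1.13) and at -0.48 ± 1.06 in CAL27, with a difference of 1.00 that did not pass (limma adjusted p = 0.163). It passed on scaled values (1.22, adjusted p = 0.0223), with columns divided by the median absolute deviation (adjusted p = 0.0240) and after quantile normalization (adjusted p = 0.0124). Among 33 general transcription factors and polymerase subunits, BTF3, ZBTB7B (-1.73), KLF7 and the RNA polymerase II subunit POLR2A (-1.52) were lower, and ZFP36L2 (1.45) and HOPX (1.04) were higher, shares near those of all genes (11.6% and 7.95%). POLR2A was lost without A431 value column 4 (adjusted p = 0.0543) or 8 (adjusted p = 0.0604), and when scaled. ZFP36L2 was lost without A431 value column 4, 6 or 7, where the adjusted p reached 0.0601. Of 11 S100 and annexin genes, ANXA2 was lower (-0.96), lost when scaled and without 10 of the 18 tumors taken singly. Of 13 serpin and protease genes, SERPINB1 was higher (1.45), lost when scaled. These shares too were near those of all genes. None of 8 G1 and E2F genes and none of 13 matrix and mesenchymal genes passed with the pooled spread (limma, 100 of 327 genes had an unadjusted p under 0.05).

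Genes that changed in both lines mostly changed by more log units in CAL27. Of 22 genes lower than the median gene in both lines by each line's own test, CAL27 had the lower mean for 19, and the difference passed for 7. Of 13 genes higher in both, CAL27 had the higher mean for 12 and the difference passed for 5. CAL27 tumors had the wider spread over genes (SD 1.70 against 0.93), which by itself moves such genes farther from 0. These counts were not repeated on scaled values. The shared lower genes with the smallest differences were FEN1, the flap endonuclease of lagging-strand replication (-0.17), DNAJC9, TP63, UBE2C and BIRC5. The shared higher genes with the smallest differences were the collagen chaperone SERPINH1 (0.18), NOTCH3, SMARCA4 (-0.31), the calmodulin-like CALML3 (0.42) and the transcription factor IRX3 (0.86). A difference that did not pass does not show that the lines act alike, and the interval for FEN1 ran from -1.72 to 1.37. Every tumor correlated better across genes with the mean of the other tumors of its line (0.47 to 0.61 in A431, 0.65 to 0.76 in CAL27) than with the mean of the other line (0.34 to 0.49 and 0.40 to 0.54). Tumors of a line also share their initial cells and library, which alone raises the first set, and genes are not independent replicates.

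In 6 of 45 pairs of CAL27 tumors and 0 of 28 pairs of A431 tumors, at least 4 genes differed between the pair by the same amount to 6 decimals. The values and fits given here use these tied values as deposited, although they may be bounds and not levels. They lay in 5 CAL27 tumors, with 4 to 16 genes a tumor, and touched 23 genes. Among them were DUT, GINS2, BTF3, YBX1, FERMT1, SMC4, FOSL1 and MCM5 (2 tumors each), MCM7, CFL1, EGFR and GNB2L1 (3 each) and PCNA (4). Without those 5 tumors the test called 19 genes lower and 16 higher, and 30 of the 56 named genes called in tumors lost their call. The differences of DUT (-3.85) and MCM7 (-2.61) still passed. For 12 of the 30 the difference also shrank by more than 1.5 times. These were PTMA (to -1.63, limma adjusted p = 0.0515), YBX1 (-1.37, 0.0665), GLTP (-1.27, 0.152), PKM (-1.12, 0.210), ZBTB7B (-1.10, 0.0796) and GNB2L1 (-0.96, 0.354). The others were KLF7 (-0.89, adjusted p = 0.0732), FOSL1 (-0.80, 0.170), KRT16 (-0.77, 0.214), CDK1 (-0.37, 0.540), TYMS (0.75, 0.210) and IRF2 (1.02, 0.131). Of the 12, PTMA, PKM, ZBTB7B, KLF7, KRT16, TYMS and IRF2 held no tied value themselves. The 5 tumors left out included those with the widest spread over genes (SD 2.23 and 2.03), and fewer CAL27 tumors remained. Whether tied values, wide tumors or the smaller group ended these calls was not tested.

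The differences seen in tumors were only partly there in culture. Each line's own 2 cultures served as the comparison, with separately labelled initial cells, and the cultures were grown for 3 weeks while the tumors grew for about 2 months. Of the 38 genes lower in CAL27 tumors, 28 were also lower in CAL27 culture by value, beside 53.2% of all genes, with a median culture difference of -0.34. Of the 26 higher genes, 14 were also higher in culture, beside 46.8% of all genes, with a median of 0.03. The replication list had a median culture difference of -0.81. The tubulin (-0.03), AP-1 and MYC (-0.06) and chaperone and translation (-0.08) lists had medians near the -0.02 of all genes in culture. Single members did not all lie there. Among the genes of these lists called in tumors, culture differences ran from -0.72 (TUBB4B) to 0.05 (TUBA1C) for tubulins. They ran from -1.15 (MYC) to 0.35 (JUNB) for AP-1 and MYC, and from -0.83 (PABPC1) to 0.01 (GNB2L1) for chaperones and translation. These culture differences are values from 2 cultures a line and were not tested on their own.

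**Figure D5:**
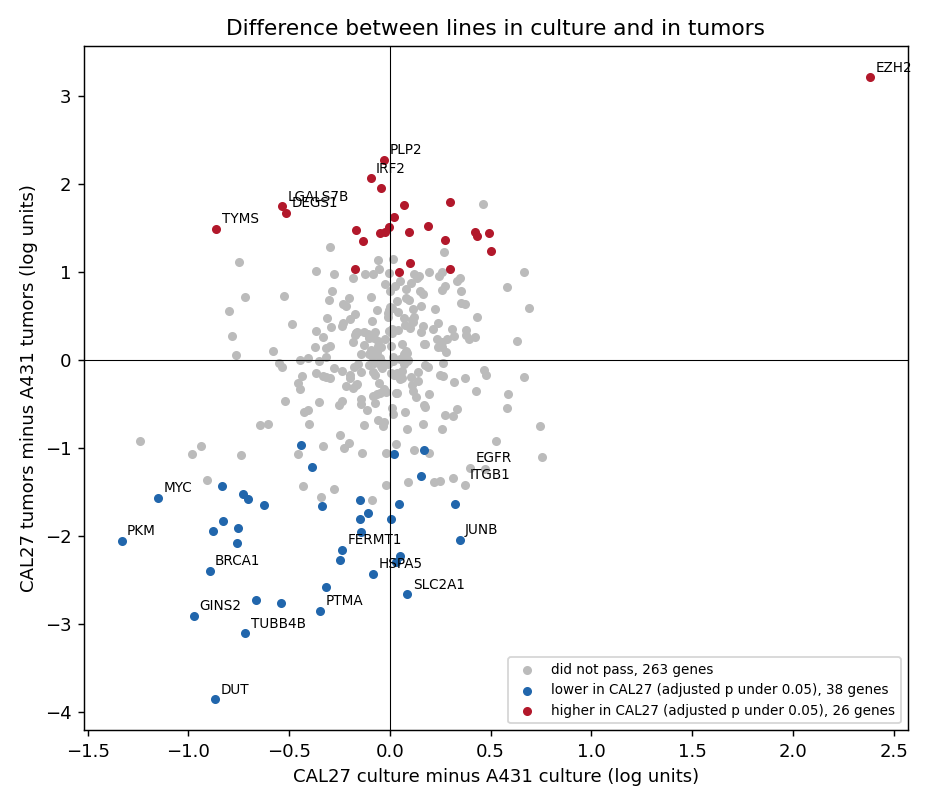
Each point is a gene, with its CAL27 minus A431 difference between the culture means (2 cultures per line) on the horizontal axis and between tumor means on the vertical axis, both in log units, coloured by the tumor call. EZH2 is alone at the upper right, with 2.38 in culture and 3.22 in tumors, and TYMS is higher in CAL27 tumors but lower in CAL27 culture.

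The line by setting test asked whether the difference between lines was itself different in tumors and culture. With an own spread for each of the 4 tables, 33 genes (10.1%) were more negative and 23 (7.03%) more positive in tumors than in culture, and 23 and 17 of them were among the 38 and 26. With 1 spread pooled over the 4 tables, limma called 0 and 0, and 9 genes had an unadjusted p under 0.05. With scaled columns 12 and 16 passed. Each culture group has 2 columns, so these calls lean on a small sample of the cultures' spread.

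The most negative were DUT (-2.98), SLC2A1 (-2.75), PTMA (-2.50), JUNB (-2.39) and TUBB4B (-2.39), with adjusted p from 4.84e-04 to 7.78e-03 in the own-spread fit based on limma. SLC2A1 stood at -1.31 in A431 culture and -1.22 in CAL27 culture, close together, against 0.36 ± 0.58 and -2.30 ± 1.73 in tumors. JUNB stood at -1.11 and -0.76 in culture against 0.10 ± 0.56 and -1.94 ± 1.45 in tumors. For both genes the A431 tumors were thus nearer to the median gene than the A431 cultures, and the CAL27 tumors farther from it. SLC2A1 and JUNB also passed with scaled columns, while DUT, PTMA and TUBB4B did not (adjusted p = 0.683, 0.316 and 0.0682).

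The most positive were TYMS (2.35), PLP2 (2.31), LGALS7B (2.28), DEGS1 (2.19) and IRF2 (2.16). TYMS guides were lost in both cultures, at -1.81 in A431 and -2.67 in CAL27. In A431 tumors they averaged -1.09 ± 0.75, and in CAL27 tumors 0.40 ± 1.11, so the order of the lines turned between the settings. PLP2 stood at 0.05 and 0.03 in culture and IRF2 at 0.13 and 0.03, near the median gene in both lines. All of these except IRF2 (adjusted p = 0.0533) passed with scaled columns. EZH2, which differed in both settings, gave 0.83 and did not pass (adjusted p = 0.209), and with scaled columns its sign turned to -2.24 (adjusted p = 0.0204).

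FERMT1, ITGB1 and EGFR also passed this test, with smaller sizes. FERMT1 stood at -0.21 and -0.44 in the cultures, and its line by setting difference was -1.91 (adjusted p = 5.79e-03). ITGB1 stood at -0.58 and -0.21 and gave -1.78 (adjusted p = 0.0241), and EGFR stood at -1.25 and -0.85 and gave -1.62 (adjusted p = 0.0282). With scaled columns these became -0.03, -0.49 and -0.85, and none passed. The ITGB1 call was lost without A431 value column 3 or CAL27 value column 2, 3, 6 or 10, where the adjusted p reached 0.0719. The EGFR call was lost without A431 value column 2, 3 or 4 or CAL27 value column 2, 3, 6 or 7, where it reached 0.0712.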

How the data were processed

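Guide RNA abundance was measured in genomic DNA of 8 A431 and 10 CAL27 tumors and of 2 cultures per line. The authors deposited log fold changes per gene against the initial cells, and Bowtie2 was used, per the submitters' processing notes. The log base, pseudocount, guide summary, Bowtie2 version, genome build and read depth are missing from the sources used here, and fits across tables assume a common scale. Each table held 327 genes and a non-targeting row at 0, which was left out. Value columns carry no replicate numbers and were matched to groups by table. The deposited values are unit-free log fold changes whose scale is called log units here.

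Columns were centred on the median over genes. Lines were compared with limma 3.58.1 in R 4.3.3 (lmFit, eBayes, Benjamini-Hochberg at 0.05 over 327 genes) with a pooled spread, and with each line's own spread by a moderated Welch test. The same own-spread test over 4 tables gave the line by setting difference. Single values per tumor were compared by exact permutation. On simulated data with 20 genes changed by each size, the pooled fit recovered 25% of changes of 1 log unit, 90% of 2 and 95% of 3 in CAL27 minus A431 tumors over 327 genes, and called 4 of 267 unchanged genes. Whether these rates hold with a wider spread over genes in CAL27 tumors, tied values or an error in the initial cells was not tested. Alternatives were another spread, centring, scaling, weighting, test or prior, and leaving out tumors.

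Members and gene lists were chosen with earlier results of these data known, and the list of general transcription factors after the gene names were seen. Named genes are the 10 largest called differences each way, ITGB1, FERMT1, EGFR, TP63, SMARCA4, NOTCH3, DUT, DEGS1 and EZH2, the 5 largest line by setting differences each way, up to 4 called members of each list, up to 10 genes each way called after scaling, and up to 5 each way changed in both lines with the smallest difference. List ends that meet no other part are given as ranges. RRM2, TK1, RPS19, FLNA, HOPX, LGALS7, KRT5, PCNA, MCM5, TUBB and CEBPA were named after their values were seen.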

Additional observations from a re-analysis of the deposited data

Results flagged for a closer look

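In 142 groups of tumors tested for a single extreme value (a gap to the nearest tumor that is large beside the group's range), 7 stood out. Chance gives about 1 in 20, so this number is about what chance gives. Among A431 tumors the lowest values of DUT (-6.29), HSPA5 (-2.22), GLTP (-2.02) and CXADR (-1.07) and the highest value of KLF7 (1.43) stood apart from the rest. Among CAL27 tumors the highest value of CALML3 (5.01) stood apart. The median gene of CAL27 value column 6 lay -1.50 from the non-targeting guides, below the other CAL27 tumors. Leaving out the low A431 tumor moved the DUT difference to -4.53, and leaving out CAL27 value column 6 moved the difference of medians to -0.46.

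The difference between lines itself differed between tumors and culture, by the own-spread line by setting test, for 13 named genes. The difference was more negative in tumors for DUT (-2.98), SLC2A1 (-2.75), PTMA (-2.50), JUNB (-2.39), TUBB4B (-2.39), FERMT1 (-1.91), ITGB1 (-1.78) and EGFR (-1.62). It was more positive in tumors for TYMS (2.35), PLP2 (2.31), LGALS7B (2.28), DEGS1 (2.19) and IRF2 (2.16).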

How the results depend on the processing

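Of 56 named genes called in tumors, 40 kept their call without each single tumor and 29 kept it on SD-scaled values. The 38 lower and 26 higher genes became 61 and 5 relative to the non-targeting guides, 21 and 15 with columns divided by their SD, 22 and 17 divided by their median absolute deviation, 19 and 17 after quantile normalization, and 10 and 1 with SCC13 tumors in the fit, which ended 45 of the named calls at unchanged differences. Chosen after seeing the data, leaving out the narrowest A431 and the widest CAL27 tumor gave 22 lower and 23 higher, scaled columns with own spreads 23 and 17, and leaving out the 5 CAL27 tumors with tied values 19 and 16. Without single tumors the counts ran from 31 to 46 and from 19 to 28. Own spreads, robust regression, array weights, the exact rank-sum test, a trended prior and leaving out genes with shared exact values gave 33 to 45 lower and 22 to 39 higher. Among the named calls, own spreads and leaving out genes with shared exact values ended 0, robust regression 1 (ZFP36L2), array weights 2 (CDK1, ANXA2), the rank-sum test 6 (ZFP36L2, CXADR, GNB2L1, CFL1, PFN1, HMGB1) and the trended prior 7 (SFN, TUBA1B, PFN1, MYC, CKS1B, CDK1, ANXA2). The line by setting counts (33 and 23) became 0 and 0 with a pooled spread, 53 and 8 relative to the non-targeting guides, and 12 and 16 when scaled, and ran from 24 to 35 and from 18 to 26 without single tumors. The spread difference ran from 0.70 to 0.84 and the difference of medians from -0.58 to -0.46 without single tumors, and both kept their call with the other measure (0.67 by median absolute deviation, -0.64 by the mean).

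Signs changed among named genes with differences that had not passed, apart from SMC4, which became 0.21 after quantile normalization. With columns divided by the SD (pooled or own spread), the median absolute deviation, and after quantile normalization, FEN1 became 0.66, 0.76 and 1.15, DNAJC9 0.62, 0.69 and 0.78, BIRC5 0.50, 0.40 and 0.78, ITGB1 0.30, 0.32 and 0.43, EGFR 0.18, 0.17 and 0.34, SERPINH1 -0.28, -0.31 and -0.37, NOTCH3 -0.78, -0.82 and -1.07, and CALML3 -0.35, -0.40 and -0.48. Relative to the non-targeting guides TP63 became -0.30, SERPINH1 -0.36, NOTCH3 -0.33 and CALML3 -0.11. Robust regression gave 0.30 for FEN1 and 0.24 for DNAJC9, and array weights 0.059 for DNAJC9 and -0.52 for TP63. Without the narrowest A431 and widest CAL27 tumor FEN1 was 0.20, DNAJC9 0.29 and CALML3 -0.038. Without the 5 CAL27 tumors with tied values FEN1 was 0.90, DNAJC9 0.45, TP63 -0.65, SERPINH1 -0.32, NOTCH3 -0.050 and SMARCA4 0.093. Without single tumors FEN1 ran from -0.45 to 0.42, DNAJC9 from -0.51 to 0.20, TP63 from -0.18 to 0.67 and SERPINH1 from -0.051 to 0.34. For the line by setting difference, scaled columns gave -2.24 for EZH2, 0.32 for TP63 and -0.45 for NOTCH3, and NOTCH3 was -0.025 relative to the non-targeting guides. Without single tumors that of TP63 ran from -0.46 to 0.39 and of SMARCA4 from -0.38 to 0.076. The cause of these changes was not tested.

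No paired analysis was possible because the value columns carry no replicate numbers. Depth is unknown, so a value cannot be given a counting error. The initial cells, 2 labelled samples per line and setting, are shared by every column of a table, and their error is in no test.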

Other observations

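In the 16 SCC13 tumors, which grew in another mouse strain and were centred the same way, the genes of opposite sign stood as follows, with no test. EZH2 averaged -0.98 ± 2.11 (SD, n = 16), beside -0.90 in A431 tumors and 2.31 in CAL27 tumors. TUBB4B averaged 2.52 ± 1.13, beside 0.93 and -2.17, and KLF7 averaged 2.54 ± 1.24, beside 0.62 and -1.02, so CAL27 was the only line of the 3 with a negative mean for both. JUNB (-2.92 ± 1.36) and SLC2A1 (-2.48 ± 1.46) were on the side of CAL27, where they averaged -1.94 and -2.30, and not of A431.

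Of the 327 genes, 311 matched the RefSeq gene table (GRCh38.p14) by symbol and 16 by an older symbol. Of the 6 differentiation genes higher in CAL27 tumors, 5 lay on chromosome 19: KRTDAP, DMKN and SBSN followed each other directly among the library's genes there, as did LGALS7 and LGALS7B next to them. Of the 17 differentiation genes 6 lay on that chromosome in all, and the median difference of its 28 library genes was 0.44. Of these 28 genes, 6 were higher and 3 were lower in CAL27 tumors. On chromosome 17, 6 of 19 genes were lower in CAL27 tumors (PFN1, POLR2A, KRT14, KRT16, JUP and BRCA1) and 1 was higher (TK1), beside 11.6% and 7.95% of all genes. Its median difference was -0.24 in tumors and -0.37 in culture. The calls of PFN1, POLR2A and KRT14 were lost when scaled. Those of KRT16 and JUP were lost without 1 and 4 of the 18 tumors taken singly. KRT10 (-0.04) and KRT15 (0.03) came just before KRT14 and KRT16 among the library's genes there. Chromosomes 19 and 17 did not stand alone. On chromosome 15, 3 of 8 genes were lower, with a median culture difference of -0.37. The median tumor difference was -0.63 over 12 genes on chromosome 5 and 1.15 over 5 genes on chromosome X. These positions were examined after the values were seen, and whether they bear on the differences was not tested.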
